A study of Mus musculus with 6 samples.

Results

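The glucocorticoid-responsive genes examined here are 10 mouse genes chosen by name: the receptor Nr3c1, the steroid-activating enzyme Hsd11b1, and 8 genes known to respond to glucocorticoid (Fkbp5, Tsc22d3, Zbtb16, Sgk1, Errfi1, Cdkn1a, Klf9 and Klf15). All 10 were found by their NCBI gene numbers among the 17441 genes listed in any library, had a value above 0 in all 6 libraries, and were among the 13120 genes tested. RNA was taken from mouse heart tissue below the ligature 3 days after surgery, in 3 groups of 2 libraries each. The WT sham group were wild-type mice operated on without ligation, the WT MI group were wild-type mice with myocardial infarction (MI) after ligation of the left coronary artery, and the Card9 KO MI group were Card9 knockout mice after that ligation. All were male, 12 weeks old by the labels and on a C57BL/6 background. No Card9 knockout sham group was analysed here. The effects of the knockout and of the infarct therefore cannot be told apart in a comparison of Card9 KO MI with WT sham.

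Glucocorticoids (corticosterone in the mouse) enter the cell and bind the glucocorticoid receptor, which is held ready in the cytoplasm by heat shock proteins and immunophilins. The bound receptor moves to the nucleus and switches on genes through glucocorticoid response elements, inverted repeats of a short hexamer, and it restrains inflammatory genes. In heart muscle the receptor acts on contraction and fuel use, in macrophages and other immune cells it dampens cytokine production, and surgery and infarction are known to raise the circulating hormone. Hormone was not measured in these libraries, which hold RNA only.

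Card9, the targeted gene, had no less RNA under the knockout label than in the wild-type groups. In FPKM, the fragments on a gene scaled by its length and by all fragments of the library, it was at 0.99 and 1.03 in the sham libraries, 3.39 and 5.08 in WT MI, with 9.85 and 6.94 in Card9 KO MI. Its log2 difference from WT MI, 0.85 (SE 0.23, limma adjusted p = 0.112), was not called. The part of the gene that was deleted is not given in the sources used here, and every direction given for the libraries labelled Card9 KO MI rests on that label. Between 14935 and 15852 genes were listed per library. By an estimate of depth from the spacing of low values, 3 fragments on a gene of 2 kb gave an FPKM of 0.348 to 0.492 in these libraries. Nothing in the labels says that the 2 libraries of a group came from separate animals, so p-values measure only the spread between these libraries, which may be technical.

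The 10 genes were expressed in every group (plot of FPKM by gene and library). On the FPKM scale, which is per gene length, the mean level in WT sham was highest for Cdkn1a (43.1), followed by Klf9 (36.0), Sgk1 (35.6), Tsc22d3 (31.1), Klf15 (22.6), Nr3c1 (19.6), Errfi1 (13.5), Zbtb16 (12.2), Hsd11b1 (8.85) and Fkbp5 (5.03). The sham libraries of Klf9 and Sgk1 overlapped, as did those of Errfi1 and Zbtb16. In Card9 KO MI, Hsd11b1 was lowest with a mean of 3.27, followed by Zbtb16 (7.49) and Klf15 (7.92), and Fkbp5 had a mean of 12.1.

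**Figure D1:**
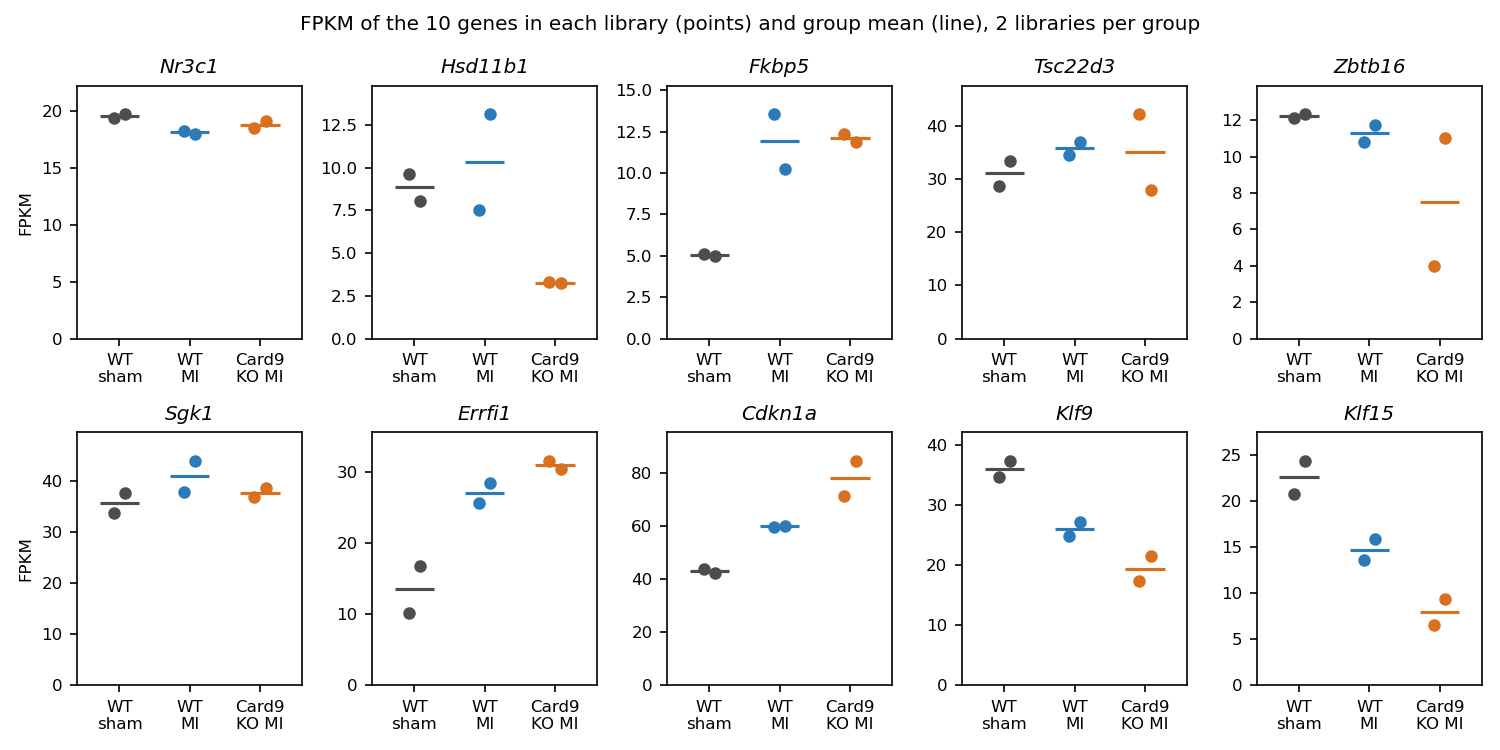
FPKM (vertical axes, from 0, a scale of its own in each panel) of the 10 genes in each of the 6 libraries (points) with the group mean (lines). Fkbp5, Errfi1 and Cdkn1a sit above WT sham in both MI groups, Klf9 and Klf15 step down from WT sham to WT MI to Card9 KO MI, and Hsd11b1 is at 3.29 and 3.24 in Card9 KO MI.

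Infarction of wild-type hearts was examined first, as WT MI against WT sham. Fkbp5, Errfi1 and Cdkn1a rose, Klf9 and Klf15 fell, and the other 5 genes did not pass the test (limma on log2(FPKM + 1), with a call at a Benjamini-Hochberg adjusted p under 0.05). Of all genes tested, 27.7% were called higher and 9.39% lower, against 3 and 2 of these 10. The median log2 fold change of the 10 genes was 0.18, and that of all genes tested was 0.19. The libraries of the 2 groups did not overlap for 9 of the 10 genes, and for 70.4% of all genes tested. A rescaling of the libraries to a common upper quartile moved the median of all genes from 0.19 to 0.00, and the calls from 3637 higher and 1232 lower to 2603 higher and 2159 lower.

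When Card9 KO MI was compared with WT MI, Hsd11b1 was the only one of the 10 genes to pass the test, and it was lower. Here 0.816% of all genes tested were called higher and 0.587% lower, and upper-quartile scaling gave 88 higher and 93 lower calls in place of 107 and 77. At an unadjusted p under 0.05, 4 of the 10 genes were counted (Hsd11b1, Klf15, Klf9 and Cdkn1a), as were 2629 (20%) of all genes tested. The libraries did not overlap for 6 of the 10 genes, and for 52.7% of all genes tested. The median log2 fold change was -0.09 for the 10 genes and 0.04 for all genes.

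Against WT sham, Fkbp5, Errfi1 and Cdkn1a were higher in Card9 KO MI and Klf9, Klf15 and Hsd11b1 were lower. Of all genes tested, 34.8% were called higher and 14.3% lower, with 4569 and 1875 calls that became 3230 and 2884 under upper-quartile scaling. The 10 genes had a median log2 fold change of 0.01, against 0.24 for all genes, and for 8 of them the libraries did not overlap, as for 76.1% of all genes tested. This comparison and the one of WT MI share the sham libraries, and the 2 comparisons with Card9 KO MI share those libraries.

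**Figure D2:**
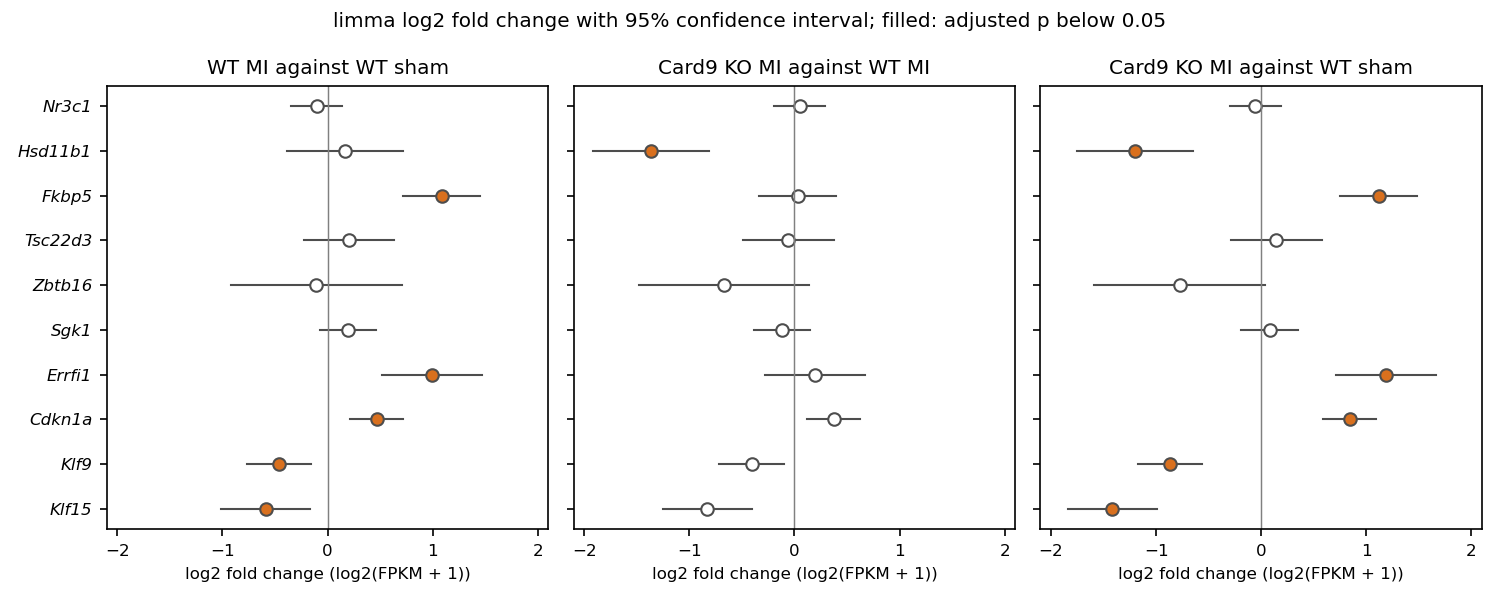
Log2 fold change on the log2(FPKM + 1) scale (horizontal axes) of each gene in the 3 comparisons, with its 95% confidence interval from limma (lines), filled where the adjusted p is under 0.05. The intervals of Nr3c1, Sgk1, Tsc22d3 and Zbtb16 cross 0 in all 3 comparisons, and those of Klf15 lie below 0 in all 3, from -0.59 in WT MI against WT sham to -1.42 in Card9 KO MI against WT sham.

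**Figure D3:**
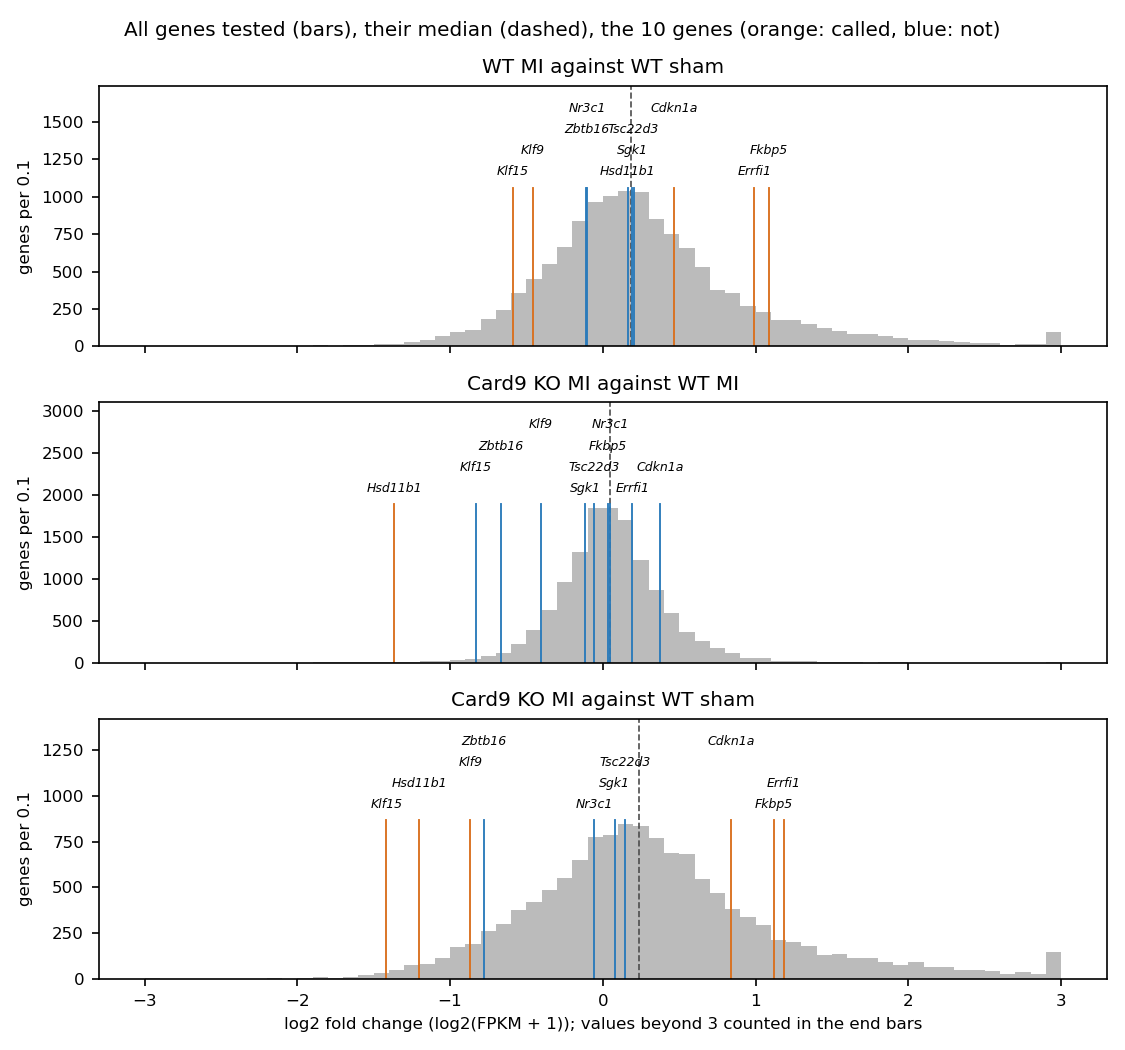
Number of genes (vertical axes) by log2 fold change in bins of 0.1 for all 13120 genes tested (grey bars), their median (dashed) and the 10 genes (lines, orange if called). For Card9 KO MI against WT MI, Hsd11b1 at -1.37, Klf15 at -0.83, Zbtb16 at -0.67 and Klf9 at -0.41 lie below the median of 0.04 and Cdkn1a at 0.37 above it, with the other 5 genes closer to it.

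The receptor itself was examined first among the members. Nr3c1 (mm9, chr18:39570199-39650955, minus strand) encodes the glucocorticoid receptor, the transcription factor through which the hormone acts. Its FPKM was 19.4 and 19.8 in the sham libraries, 18.3 and 18.0 in WT MI, with 18.5 and 19.1 in Card9 KO MI. All 6 libraries thus lay between 18.0 and 19.8, the narrowest range among the 10 genes. The log2 difference of WT MI from WT sham was -0.10 (95% interval -0.35 to 0.14, adjusted p = 0.477), and that of Card9 KO MI from WT MI was 0.05 (-0.20 to 0.29, adjusted p = 0.844). Scaling of the libraries moved the first of these, which became -0.31 (adjusted p = 0.0552) by the upper quartile and -0.32 (adjusted p = 0.0533) by quantile normalization. The difference of Card9 KO MI from WT sham, -0.06, likewise became -0.30 by either (adjusted p = 0.0524 and 0.0515).

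Of 17 other genes of the receptor pathway, 16 were tested. In WT MI against WT sham 5 were higher and 2 lower, where 27.7% of all genes tested were called higher and 9.39% lower. Fkbp4, an immunophilin that helps the receptor toward the nucleus, fell by 1.18 on the log2 scale (SE 0.14, adjusted p = 0.000726), from an FPKM of 249 and 238 in WT sham to 92.5 and 123 in WT MI. The mineralocorticoid receptor Nr3c2, which binds the same hormones, was 5.98 and 5.28 in WT sham and 1.62 and 2.28 in WT MI, a log2 change of -1.18 (adjusted p = 0.003). H6pd, which supplies the cofactor of Hsd11b1, rose by 0.62, and the receptor co-chaperone Ptges3 rose by 0.59. No gene of this list passed limma's test between Card9 KO MI and WT MI, with 1 at an unadjusted p under 0.05, as were 20% of all genes tested. Against WT sham, Card9 KO MI had 4 higher and 3 lower, with Fkbp4 at -1.35 and Nr3c2 at -1.34. The shares of all genes tested were 34.8% higher and 14.3% lower. Hsd11b2, the enzyme that inactivates the hormone, was not listed for 5 of the 6 libraries and had an FPKM of 0.26 in the other one.

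Hsd11b1 (mm9, chr1:195047824-195090248, minus strand) encodes the enzyme that turns inactive 11-dehydrocorticosterone back into corticosterone inside the cell. Its FPKM was 9.66 and 8.04 in the sham libraries, 7.55 and 13.2 in WT MI, with 3.29 and 3.24 in Card9 KO MI. Both libraries labelled Card9 KO MI were below all others, whereas the WT MI libraries lay on either side of the sham libraries. Its mean reached 31.5% of the WT MI mean, a log2 fold change of -1.37 (SE 0.24, 95% interval -1.92 to -0.81, limma adjusted p = 0.0472). By size it ranked 20 among the 77 lower calls. Against WT sham the log2 fold change was -1.20 (SE 0.24, adjusted p = 0.00435), and for WT MI against WT sham it was 0.16 (adjusted p = 0.624). The difference from WT MI lay close to the threshold, and its adjusted p ran from 0.0338 to 0.18 over 15 other settings of the fit, of which 4 kept the call. Without any 1 of the 6 libraries the call was lost, at log2 fold changes of -1.730 to -1.003 and adjusted p-values of 0.0587 and 0.152 (leaving out WT MI replicate 1 or 2), 0.0697 and 0.0688 (WT sham replicate 1 or 2) and 0.18 and 0.103 (Card9 KO MI replicate 1 or 2). Here and in the other fits that leave a group with 1 library, that library is assumed to vary like the other groups.

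About 36.2 to 140 fragments per library stood behind Hsd11b1, the lowest of the 10 genes, by the estimate from the spacing of low FPKM values. Fibroblasts, fat cells and macrophages are known to express the enzyme, and markers of these cells moved with the groups. The summed FPKM of 8 fibroblast markers was 475 to 493 in sham, 1146 to 1554 in WT MI, with 2444 to 2519 in Card9 KO MI, and that of 9 macrophage markers was 299 to 356, 1277 to 1635 and 1869 to 2608. Of the fibroblast markers 6 of 8 and of the macrophage markers 9 of 9 were called higher in WT MI against WT sham. Between Card9 KO MI and WT MI, 3 of the fibroblast markers were called higher and 0 lower, and limma called none of the 9 macrophage markers, with 5 of them at an unadjusted p under 0.05. Fat cell markers were sparse. Their summed FPKM was 5.34 and 4.25 in sham, 16.0 and 3.36 in WT MI, with 0.99 and 10.3 in Card9 KO MI. Cfd, Plin1 and Cidec were not listed for Card9 KO MI replicate 1. The part of any of these cell types in the Hsd11b1 difference was not tested.

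The genes that glucocorticoid is known to switch on through the receptor did not move as a block. Fkbp5 (mm9, chr17:28536040-28654469, minus strand) encodes FKBP51, the immunophilin that lowers the receptor's affinity for hormone and is itself induced by the receptor. Its FPKM was 5.09 and 4.97 in the sham libraries, 13.6 and 10.3 in WT MI, with 12.3 and 11.9 in Card9 KO MI. Every MI library lay above both sham libraries, and the 2 MI groups overlapped. The log2 fold change was 1.09 (SE 0.16, adjusted p = 0.00159) in WT MI, with 1.12 (SE 0.16, adjusted p = 0.000867) in Card9 KO MI against WT sham, and both calls held under the 15 other settings of the fit and with a fold change of at least 2 asked for. Neither was made by a screen on group means that asks for a fold of 2 and a difference above most of those between libraries of 1 group. Card9 KO MI differed from WT MI by 0.03 (95% interval -0.33 to 0.40). In size the WT MI change ranked 1333 among the 3637 higher calls.

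Tsc22d3 (GILZ), a leucine zipper protein through which glucocorticoids restrain NF-κB, gave FPKM values of 28.7 and 33.4 in the sham libraries, 34.6 and 37.0 in WT MI, with 42.2 and 27.9 in Card9 KO MI. The 2 libraries labelled Card9 KO MI were the highest and the lowest of all 6. Its log2 difference was 0.20 in WT MI (95% interval -0.23 to 0.63, adjusted p = 0.428) and 0.14 in Card9 KO MI against WT sham (-0.28 to 0.57, adjusted p = 0.546). Under upper-quartile scaling these became -0.01 and -0.10. Without Card9 KO MI replicate 2 the difference of Card9 KO MI from WT sham was 0.43 with an adjusted p of 0.0474, and without replicate 1 it was -0.14 with an adjusted p of 0.471, each resting on 1 library in that group with the spread of the others.

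Zbtb16 (PLZF) encodes a zinc finger repressor that is strongly induced by glucocorticoid in many cells. It had an FPKM of 12.1 and 12.3 in the sham libraries, 10.8 and 11.7 in WT MI, with 3.96 and 11.0 in Card9 KO MI. Only Card9 KO MI replicate 1 stood apart from the rest. The log2 difference of Card9 KO MI from WT sham was -0.78 (95% interval -1.59 to 0.04, adjusted p = 0.101). With 1 library left in that group and the spread taken from the others, it was -1.41 (adjusted p = 0.0011) for Card9 KO MI replicate 1 alone and -0.14 (adjusted p = 0.531) for replicate 2 alone. With both it passed the test under upper-quartile scaling (-1.004, adjusted p = 0.0478) and quantile normalization (-1.11, adjusted p = 0.0425).

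Sgk1 encodes a serine/threonine kinase that acts on ion channels and transporters and is a classical early target of both corticosteroid receptors. Its FPKM of 33.6 and 37.6 in the sham libraries, 37.9 and 44.0 in WT MI, with 36.7 and 38.5 in Card9 KO MI varied little. The log2 difference was 0.19 (95% interval -0.07 to 0.46, adjusted p = 0.224) in WT MI, with 0.08 (-0.19 to 0.35, adjusted p = 0.598) in Card9 KO MI against WT sham, and upper-quartile scaling turned both to -0.02 and -0.17. An FPKM sums all transcripts of a gene, and 13 transcripts of Sgk1 are annotated in mm9, so a shift between its promoters would not be seen.

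Errfi1 encodes MIG6, an inhibitor of the epidermal growth factor receptor that both glucocorticoid and growth factor signalling induce. Its FPKM was 10.2 and 16.9 in the sham libraries, 25.7 and 28.5 in WT MI, with 31.7 and 30.5 in Card9 KO MI, so that all MI libraries were above both sham libraries. The log2 fold change was 0.99 (SE 0.20, adjusted p = 0.00764) in WT MI, with 1.18 (SE 0.20, adjusted p = 0.00232) in Card9 KO MI. The sham libraries set the size of the first value, which was 0.65 without WT sham replicate 1 (adjusted p = 0.0149) and 1.33 without replicate 2 (adjusted p = 0.00163). That call was lost when WT MI replicate 2 was left out, at 0.92 and an adjusted p of 0.0542. Card9 KO MI and WT MI differed by 0.19 (95% interval -0.28 to 0.67, adjusted p = 0.653).

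Cdkn1a encodes p21, an inhibitor of cyclin-dependent kinases that is induced by glucocorticoid in some cells and by p53 after DNA damage. Its FPKM was 43.9 and 42.2 in the sham libraries, 59.7 and 60.1 in WT MI, with 71.5 and 84.8 in Card9 KO MI, with no overlap between any 2 groups. The log2 fold change was 0.47 (SE 0.11, adjusted p = 0.012) in WT MI, with 0.84 (SE 0.11, adjusted p = 0.000556) in Card9 KO MI against WT sham, and 0.37 (95% interval 0.12 to 0.62, adjusted p = 0.124) between Card9 KO MI and WT MI. In WT MI the call was lost under upper-quartile scaling (0.26, adjusted p = 0.11) and quantile normalization (0.28, adjusted p = 0.0878), and without WT sham replicate 2 (0.44, adjusted p = 0.0625), WT MI replicate 1 (0.47, adjusted p = 0.0665) or WT MI replicate 2 (0.46, adjusted p = 0.0647). Of 16 other p53 targets, 7 were called higher and 2 lower in WT MI, where 27.7% of all genes tested were called higher and 9.39% lower. Their median log2 fold change was 0.43, against 0.19 for all genes. Gdf15, a stress-induced cytokine, rose by 2.87, Phlda3, an inhibitor of AKT, by 1.28, the death effector Bax by 1.17 and the kinase Plk3 by 1.08, whereas Ccng1 and Sesn1 were the 2 called lower. None of the 16 passed limma's test between Card9 KO MI and WT MI, with 2 at an unadjusted p under 0.05, as were 20% of all genes tested.

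Klf9 and Klf15, both Krüppel-like zinc finger factors that glucocorticoid is known to induce, were lower after infarction. Klf9 restrains proliferation and is also driven by the circadian clock. Its FPKM was 34.6 and 37.4 in the sham libraries, 24.8 and 27.1 in WT MI, with 17.3 and 21.5 in Card9 KO MI. No 2 groups overlapped. The log2 fold change against WT sham was -0.46 (SE 0.13, adjusted p = 0.0283) in WT MI, with -0.87 (SE 0.13, adjusted p = 0.00123) in Card9 KO MI, and the difference between Card9 KO MI and WT MI was -0.41 (95% interval -0.71 to -0.10, adjusted p = 0.148). The WT MI call was lost without any 1 of the 4 libraries compared, at adjusted p-values of 0.0629 and 0.125 (leaving out WT sham replicate 1 or 2) and 0.147 and 0.0721 (WT MI replicate 1 or 2), with log2 fold changes of -0.52 to -0.40.

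Klf15 is a regulator of amino acid and glucose use in muscle, restrains hypertrophic growth of cardiomyocytes, and follows the clock as well. It had an FPKM of 20.8 and 24.4 in the sham libraries, 13.6 and 15.8 in WT MI, with 6.47 and 9.37 in Card9 KO MI, again without overlap. Its Card9 KO MI mean reached 35.1% of the sham mean. The log2 fold change against WT sham was -0.59 (SE 0.18, adjusted p = 0.038) in WT MI, with -1.42 (SE 0.18, adjusted p = 0.000564) in Card9 KO MI, where it ranked 95 among the 1875 lower calls. Between Card9 KO MI and WT MI the difference was -0.83 (95% interval -1.25 to -0.41), and its adjusted p of 0.0732 missed the threshold. As for Klf9, the call in WT MI was lost without any 1 of its 4 libraries, at adjusted p-values of 0.0613 and 0.172 (leaving out WT sham replicate 1 or 2) and 0.187 and 0.0784 (WT MI replicate 1 or 2), with log2 fold changes of -0.70 to -0.48, while the calls of both genes in Card9 KO MI against WT sham held under the 15 other settings of the fit. With a fold change of at least 2 asked for, or by the screen on group means, the call of Klf15 remained and that of Klf9 was lost. In WT MI against WT sham, both calls were also lost without the trend in the variance (limma adjusted p = 0.0573 for Klf9 and 0.0619 for Klf15). That of Klf15 was lost without a filter as well (limma adjusted p = 0.0747).

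Of 6 muscle genes that are associated with Klf15, 5 were lower in WT MI, with all 6 in Card9 KO MI against WT sham (plot of summed FPKM by list). The potassium channel subunit Kcnip2 had log2 fold changes of -1.05 in WT MI, with -1.60 in Card9 KO MI, the valine catabolic enzyme Aldh6a1 of -0.93 and -1.37, the insulin-regulated glucose transporter Slc2a4 of -0.60 and -1.31, and proline dehydrogenase Prodh of -0.99 and -0.91. None of the 6 passed limma's test between Card9 KO MI and WT MI, with 4 at an unadjusted p under 0.05. Their median log2 fold change against WT sham was -0.78 in WT MI, with -1.11 in Card9 KO MI, where that of all genes was 0.19 and 0.24.

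Cardiomyocyte markers fell alongside Klf9 and Klf15. Against WT sham, 7 of 9 markers were called lower in WT MI, and all 9 in Card9 KO MI. Their median log2 fold changes were -0.94 and -1.07. Their summed FPKM was 50936 to 52689 in sham, 31223 to 32057 in WT MI, with 26064 to 30313 in Card9 KO MI, that is 61.1% and 54.4% of the sham mean, where Klf15 was at 65.0% and 35.1% and Klf9 at 72.0% and 53.8%. In such bulk tissue, fewer cells of a type and less RNA per cell cannot be told apart, and the part of a loss of cardiomyocytes in the lower values was not tested.

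**Figure D4:**
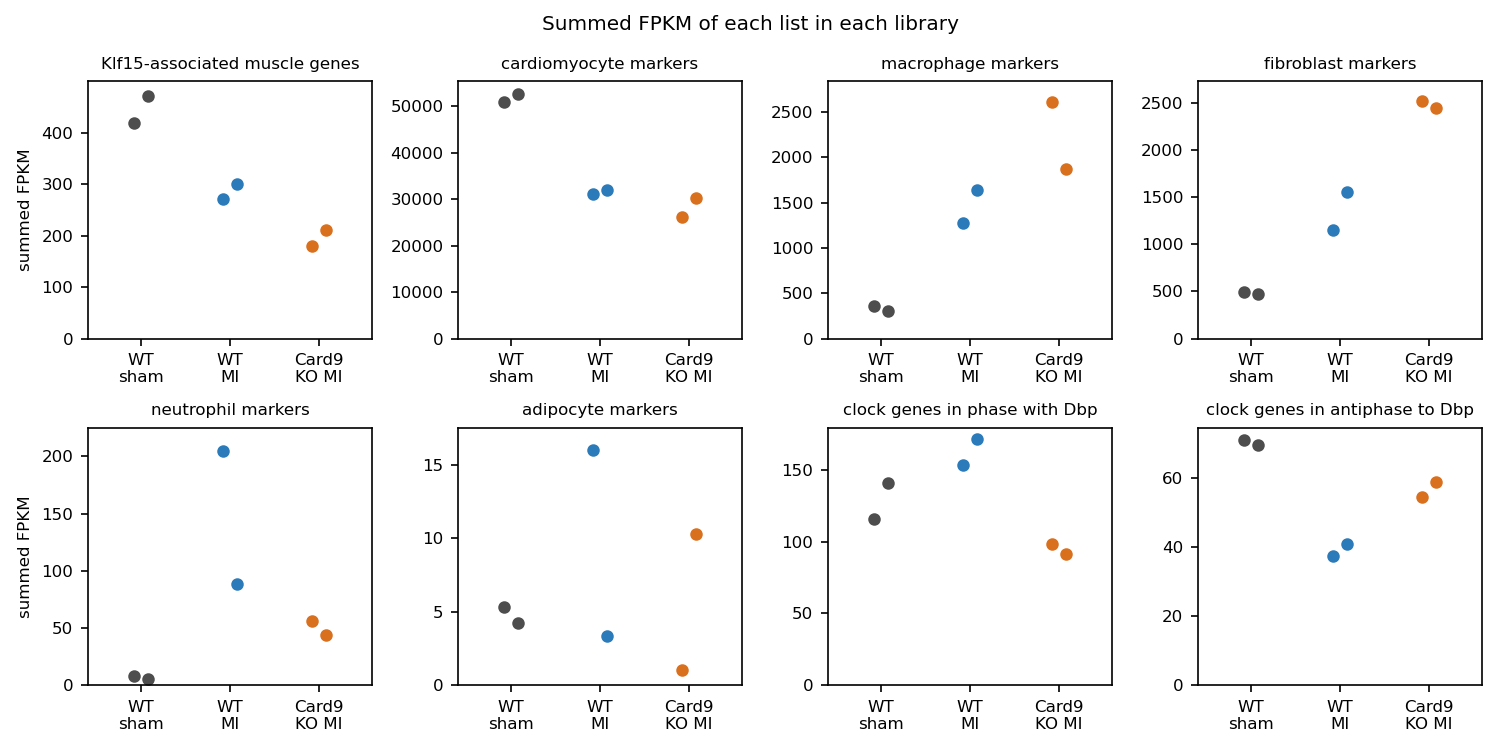
Summed FPKM (vertical axes, from 0, a scale of its own in each panel) of gene lists in each of the 6 libraries (points). Klf15-associated muscle genes and cardiomyocyte markers are lower in all MI libraries than in WT sham, macrophage and fibroblast markers are higher, and clock genes of opposite phase are set apart in WT MI.

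Several clock genes stood apart in WT MI. Dbp, a transcription factor whose RNA follows the clock, was at 7.95 and 10.9 FPKM in the sham libraries, 24.3 and 33.9 in WT MI, with 10.4 and 8.11 in Card9 KO MI. Arntl, which encodes the clock activator BMAL1 and peaks in the opposite phase, was at 12.6 and 15.8, 4.13 and 3.03, and 12.7 and 11.9. Dbp was 1.53 higher on the log2 scale in WT MI than in WT sham (adjusted p = 0.00125) and 1.54 lower in Card9 KO MI than in WT MI (adjusted p = 0.0244), and Arntl moved the other way by -1.73 and 1.55. Of 10 clock genes in phase with Dbp, 6 were called higher and 1 lower in WT MI against WT sham, and of 6 in antiphase 4 were called lower. In Card9 KO MI, 2 of the genes in phase with Dbp were called higher and 4 lower than in WT sham. Between Card9 KO MI and WT MI, all 10 in-phase genes had a negative log2 fold change, with a median of -0.72. Of these, 1 was called lower and 8 were at an unadjusted p under 0.05 by limma. Over all genes tested that share was 20%, but the clock lists too were chosen with earlier results of these data known. The 6 in antiphase had a median of 0.40, with 5 positive, 1 negative and 1 called higher. The clock repressor Nr1d1 was at 51.3 and 64.0 FPKM in the sham libraries, 43.0 and 44.1 in WT MI, with 29.3 and 31.3 in Card9 KO MI, and Hlf, a relative of Dbp, was at 4.47 and 5.12, 2.98 and 3.82, and 1.91 and 2.24. Klf9 and Klf15 were lowest in Card9 KO MI, as were Nr1d1 and Hlf, whereas Dbp and Arntl were there near their sham levels. The time of day at which hearts were collected is not given in the sources used here. Because corticosterone has a daily rhythm of its own, the part of the time of day in any of the group differences was not tested.

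Promoter windows of 8 of the 10 genes were found among 32851 mouse promoter windows of RefSeq (GRCm38.p6), which reach from 250 bases before a start to 50 after it and were read on both strands. These 8 genes had 17 windows. The stretch of 250 bases before the start is printed for 4 of them, in the direction of the gene. They hold the paired receptor hexamer (Sgk1), the clock's E-box (Klf15, Fkbp5 and Sgk1) or a p53 element (Cdkn1a). Each sequence matched mm9 at a single place with no annotated exon of the 10 genes in it. Exons of other genes were not examined. The Sgk1 stretch lay at chr10:21713446-21713695 on the plus strand, inside the introns of longer transcripts of that gene. The Fkbp5 stretch, at chr17:28623095-28623344 on the minus strand, likewise lay inside an intron of a longer transcript of its gene. Those of Klf15 (chr6:90412320-90412569) and Cdkn1a (chr17:29227674-29227923), both on the plus strand, overlapped no annotated transcript of the 10 genes. Capitals mark the motif matches described in the next paragraph where they lie wholly within the printed stretch. The Klf15 E-box that begins 3 bases before the start runs past its end and is not marked.
Sgk1: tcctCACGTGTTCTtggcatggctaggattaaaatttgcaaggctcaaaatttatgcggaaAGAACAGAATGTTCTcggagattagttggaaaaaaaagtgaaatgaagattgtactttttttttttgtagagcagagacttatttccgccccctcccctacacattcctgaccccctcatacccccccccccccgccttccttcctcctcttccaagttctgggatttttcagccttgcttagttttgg
Klf15: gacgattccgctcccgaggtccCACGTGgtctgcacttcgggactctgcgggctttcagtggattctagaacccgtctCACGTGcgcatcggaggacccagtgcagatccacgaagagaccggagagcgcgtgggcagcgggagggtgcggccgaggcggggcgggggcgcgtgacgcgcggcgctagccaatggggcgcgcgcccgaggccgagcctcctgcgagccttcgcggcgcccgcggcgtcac
Fkbp5: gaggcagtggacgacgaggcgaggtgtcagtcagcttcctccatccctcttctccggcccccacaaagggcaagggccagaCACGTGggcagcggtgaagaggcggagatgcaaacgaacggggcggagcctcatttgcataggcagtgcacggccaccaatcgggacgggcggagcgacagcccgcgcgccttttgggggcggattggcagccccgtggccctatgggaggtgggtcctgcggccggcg
Cdkn1a: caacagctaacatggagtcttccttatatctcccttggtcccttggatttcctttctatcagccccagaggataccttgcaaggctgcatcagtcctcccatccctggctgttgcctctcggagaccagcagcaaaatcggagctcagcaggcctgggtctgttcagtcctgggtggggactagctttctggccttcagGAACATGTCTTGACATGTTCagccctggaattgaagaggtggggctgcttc

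In the Sgk1 window, the hexamers AGAACA and TGTTCT stood 3 bases apart, beginning 189 bases before the start. This spacing of the glucocorticoid response element was present in 3 of all 32851 windows (0.0091%), and among the members in Sgk1 alone, the gene whose FPKM varied little between the groups. A single hexamer AGAACA, on either strand, was in 19.0% of all windows and in 4 of the 17 member windows, those of Sgk1 and Tsc22d3. The E-box CACGTG was in 7.15% of all windows and in 3 of the 17. Among the members it was found in Klf15 (beginning at 228, 172 and 3 bases before the start), Fkbp5 (169) and that window of Sgk1 (246, where it overlaps a further TGTTCT). A p53 response element with at most 1 mismatch was in 0.067% of all windows, and in the Cdkn1a window it began 51 bases before the start. The other members held none of these motifs in their windows apart from the Tsc22d3 hexamer. A match is a description of the letters in this window, and receptor elements far from a start site are outside it. Zbtb16 and Nr3c1 were not among the windows used here.

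A wider list of 35 other genes known to be induced by glucocorticoid was examined for comparison, of which 34 were tested and Tat was not listed in the files used. In WT MI against WT sham 15 were called higher and 7 lower, beside 27.7% and 9.39% of all genes tested. Their median log2 fold change was 0.46 against 0.19 for all genes. The iron-binding acute-phase protein Lcn2 rose by 6.08 (FPKM 1.90 and 3.17 in sham, 269 and 204 in WT MI), the metallothionein Mt2 by 3.21, and Anxa1, an anti-inflammatory phospholipid-binding protein, by 2.46. The kinase Pdk4, which spares glucose in muscle, fell by 2.19. Against WT sham, Card9 KO MI had 15 higher and 6 lower, led by Anxa1 (3.19), the lipase inhibitor Angptl4 (2.68), the prostaglandin D synthase Ptgds (-2.11) and the transcription factor Cebpd (1.53).

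Between Card9 KO MI and WT MI, 17 of these 34 genes were at an unadjusted p under 0.05 by limma. Over all genes tested that share was 20%. The log2 fold change was negative for 24 of the 34 and positive for 10, with a median of -0.24 against 0.04 for all genes. After adjustment, 3 of the 34 passed the test. Lcn2 was lower by 4.86 on the log2 scale (adjusted p = 0.000201), with an FPKM of 6.98 and 7.27 in Card9 KO MI. The metallothionein Mt1 was lower by 1.14 (adjusted p = 0.00503), whereas Angptl4 was higher by 0.64, close to the threshold (adjusted p = 0.0472). The study singled out Lcn2 on these libraries, so its direction is no independent evidence, and Lcn2 and metallothioneins are also induced by inflammatory signals. The muscle ubiquitin ligases Fbxo32 and Trim63 and the lipid phosphatase Lpin1, named after their values were seen, were called lower in both MI groups than in WT sham.

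**Figure D5:**
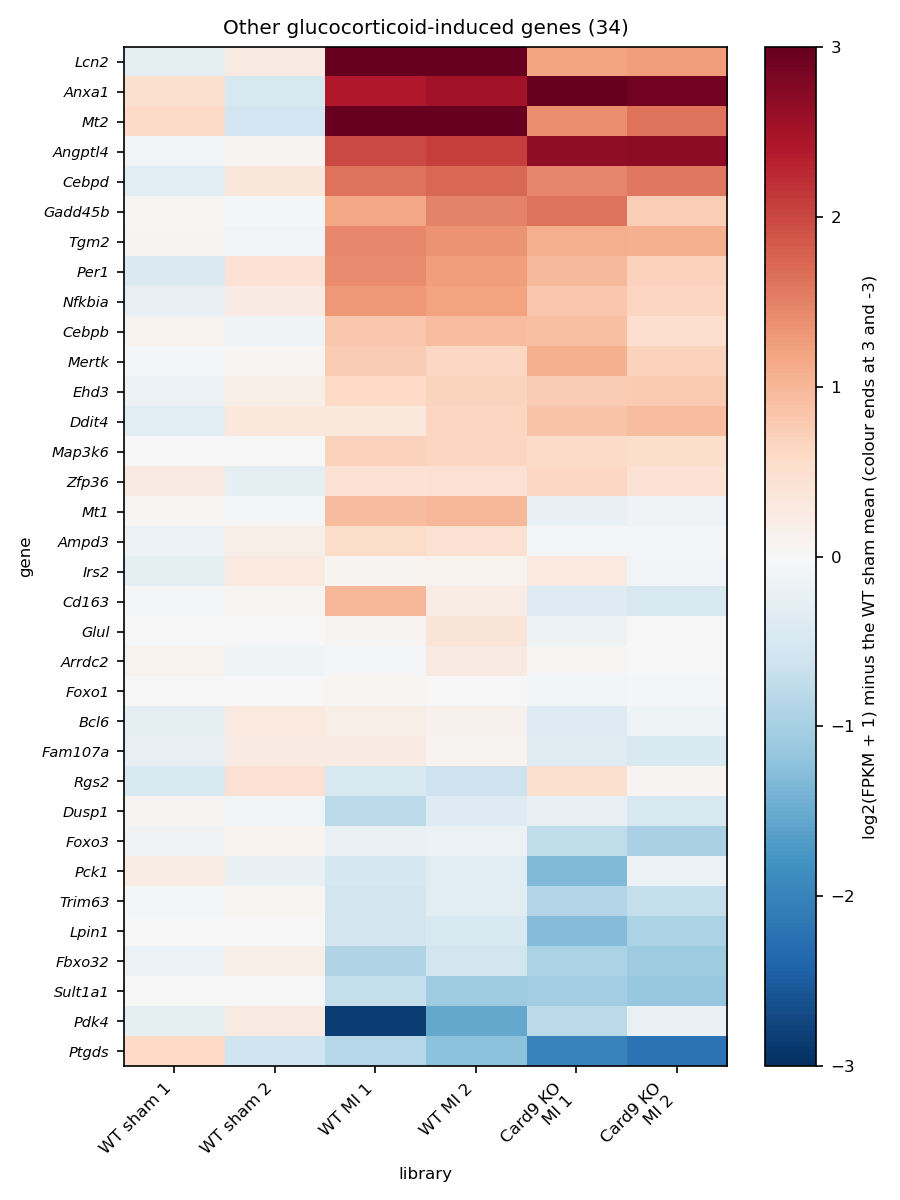
Log2(FPKM + 1) minus its mean over the WT sham libraries (colour, red above and blue below sham, ending at 3 and -3) for 34 other glucocorticoid-induced genes (rows) in the 6 libraries (columns). Lcn2, Anxa1, Mt2, Angptl4 and Cebpd are red in all MI libraries, and Ptgds and Sult1a1 are blue in all of them.

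Inflammatory genes that glucocorticoid is known to repress were higher after infarction. Of 18 such genes 16 were tested, and 14 were called higher and 0 lower in WT MI. The median log2 fold change was 2.23. The monocyte chemokine Ccl2 rose by 4.67, the gelatinase Mmp9 by 3.41, the neutrophil chemokine Cxcl1 by 3.19 and the macrophage chemokine Ccl3 by 2.73. Of the tested genes, 13 were called higher in Card9 KO MI than in WT sham and 0 lower, with Ccl2 at 3.94, Ccl3 at 3.13, Cxcl10 at 2.88 and Il6 at 2.69. Between Card9 KO MI and WT MI, Mmp9 (-2.05, adjusted p = 0.0451) and Mmp3 (-1.62, adjusted p = 0.0171) were lower, both genes of matrix proteases. The Mmp9 call lay close to the threshold, with FPKM values of 24.91 and 10.15 in WT MI, against 3.26 and 2.94 in Card9 KO MI. The median of the list between these groups was 0.01. Markers of neutrophils had a summed FPKM of 5.40 to 7.51 in sham, 88.8 to 205 in WT MI, with 43.8 to 55.8 in Card9 KO MI, and their part in these values was not tested.

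Relatives of the members were called in both directions against WT sham, and their agreement with the members was not counted. Of 11 such genes 10 were tested, and Sgk2 was not listed in the files used. In WT MI against WT sham 2 were higher and 3 lower, beside 27.7% and 9.39% of all genes tested. Cdkn1c, a cell cycle inhibitor related to Cdkn1a, fell by 1.35 (adjusted p = 0.000337) where Cdkn1a rose, and Fkbp4 fell where Fkbp5 rose. The Krüppel-like factors Klf16 and Klf13 rose by 0.79 and 0.42 where Klf9 and Klf15 fell. None of the 10 passed limma's test between Card9 KO MI and WT MI, with 1 at an unadjusted p under 0.05.

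For 9 of the members, the tested genes whose log2(FPKM + 1) followed each of them most closely over the 6 libraries were listed by Pearson's r, as a description of 6 values that fall into 3 groups. Klf15 was followed most closely by D830005E20Rik (r = 0.998), Slc2a4 (0.997) and Pik3ip1 (0.995), and Klf9 by Tmem182 (0.998), Dnaja2 (0.997) and the glutamine transporter Slc38a3 (0.997). Klf9 and Klf15 were at r = 0.992 with each other. Fkbp5 was followed by the taurine transporter Slc6a6 (1.00, from 28.2 and 28.6 FPKM in WT sham to 67.4 and 53.1 in WT MI), Abcc1 (0.999) and Rnps1 (0.997), and Cdkn1a by Rnf2, Ms4a4c and Washc4. The nearest to Hsd11b1 were Grhpr (0.998), Eps15l1 (0.991) and the clock output factor Tef (0.989), and those of Nr3c1 were Phlpp1, Cox20 and Scpep1os. For Zbtb16 they were Mrm3, Rhbdl1 and Lipt1, with Rhbdl1 at an FPKM of 0.75 in Card9 KO MI replicate 1 and 2.66 to 3.68 in the other libraries. Tsc22d3 was nearest to Ash2l, Dph7 and Smim24, and Sgk1 to Polr3b, Rictor and Tmem181a.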

How the data were processed

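RNA-seq of mouse heart was analysed in 6 libraries, grouped by their labels. Messenger RNA from a TRIzol extract was sequenced by the authors on an Illumina HiSeq and mapped to mm9 (Bowtie2 and BWA in the submitters' processing notes), and FPKM values above 0 were deposited by NCBI gene number for each library. The annotation used and whether counting used strand are not given in the sources used here, and overlapping genes can share reads. Genes absent from a library were set to 0. Of 17441 gene numbers, 17390 were matched to a symbol.

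Depth was estimated from the spacing of low FPKM values. Only 63.0% to 69.1% of them came out near whole fragments, which left read counts out of reach, and estimates cover counting error only.

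Log2(FPKM + 1) was fitted for 13120 genes, those that reached an FPKM of 1 in 2 or more libraries, with limma 3.58.1 (R 4.3.3; eBayes with trend) over the 3 groups together, without covariates. P-values were adjusted by Benjamini-Hochberg over all genes tested, and fold changes of low genes are understated by the added 1. Groups of 2 are too small for an exact permutation test per gene to reach 0.05, so none was run. The fit was tested on simulated data.

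The members and lists were chosen with earlier results of these data known. All 10 members were named, and from each other list up to 4 called genes with the largest change, and the 3 genes nearest to each member by Pearson's r. The genes nearest to Errfi1 are not reported here. Alternatives were 0.1 or 5 added, no filter, a filter at a mean FPKM of 5, quantile normalization, scaling to the upper quartile, only the groups compared, no trend, the replicate number as a block, a fold change of at least 2, a screen on group means after the paper (diverge probability of 0.8 or more beside a fold of 2), and each library left out. Positions are mm9 (GENCODE), and promoter sequences are from RefSeq (GRCm38.p6). Python 3.11.15, numpy 2.4.6 and pandas 2.3.3 were used.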

Additional observations from a re-analysis of the deposited data

How the results depend on the processing

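The number of the 10 genes called in WT MI against WT sham was 5, and it was 3 without the trend in the variance, 1 with a fold change of at least 2 asked for (Fkbp5), 1 by the screen after the paper (Errfi1), and 1 to 5 with 1 library left out. In Card9 KO MI against WT MI the 1 call (Hsd11b1) became 0 with 0.1 added, without a filter, with only the groups compared, without the trend, with the replicate block, and with any 1 library left out (0 to 0). In Card9 KO MI against WT sham the 6 calls became 4 with the fold change (Klf9 and Cdkn1a were lost), 2 by the screen (Klf15 and Errfi1) and were 6 to 8 with 1 library left out.

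Over all genes, the 4869 calls of WT MI against WT sham became 1707 with the fold change, 1177 by the screen and 2883 to 4675 with 1 library left out. The 184 calls of Card9 KO MI against WT MI became 80 with 0.1 added, 312 with 5 added, 12 without a filter, 284 at a mean FPKM of at least 5, 101 with only the groups compared, 58 without the trend, 71 with the replicate block, 96 with the fold change, and 8 to 96 with 1 library left out. The 6444 calls of Card9 KO MI against WT sham became 2544 with the fold change, 1788 by the screen and 4465 to 5996 with 1 library left out.

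A log2 fold change cannot move with the filter, the groups fitted, the trend, the replicate block or a left-out library of the group not compared. Direction was therefore fixed in advance in those fits. Of 450 values of single members under all these settings, 404 kept their direction and their side of the threshold. These include genes called under no setting, such as Nr3c1. Another 28 lost the call, 4 gained it and 14 turned sign. Those that turned were small and not called. In WT MI against WT sham they were Tsc22d3 (-0.008), Sgk1 (-0.016) and Hsd11b1 (-0.031) under upper-quartile scaling, and Hsd11b1 under quantile normalization (-0.092) and without WT MI replicate 2 (-0.199, to 0.528 without other libraries). In Card9 KO MI against WT MI they were Fkbp5 under upper-quartile scaling (-0.003), quantile normalization (-0.032) and without WT MI replicate 2 (-0.154, to 0.218 without others), and Tsc22d3 without Card9 KO MI replicate 2 (0.233, from -0.346 without others). In Card9 KO MI against WT sham they were Tsc22d3 under upper-quartile scaling (-0.102), quantile normalization (-0.050) and without Card9 KO MI replicate 1 (-0.145, to 0.434 without others), and Sgk1 under both scalings (-0.168 and -0.095). The cause was not tested.

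The replicate numbers did not pair the libraries. Same-numbered libraries of 2 groups deviated from their group means with correlations of -0.0083 to 0.020 over genes, and the replicate block changed no member's call except that of Hsd11b1 between Card9 KO MI and WT MI (adjusted p = 0.0778). With 2 libraries per group and low fragment numbers for Hsd11b1, small differences were not detectable at this depth.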
